A study of Mus musculus with 12 samples.

Results

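The comparison described here set T cell receptor alpha (Tcra) transcripts of a labelled 48 h cohort of double-positive (DP) thymocytes against those of the whole preselection DP pool, both in mice homozygous for DPASEKO (KO). It rests on 4 of the series' 12 libraries, chosen by their labels alone: KO 48 h replicates 1 and 2, and KO steady state replicates 1 and 2. Wild-type (WT) libraries of the same samplings, 2 at each, are given beside them. All mice, WT controls included, were C57BL/6J carrying strain 129 TcrdCreER at the Tcra-Tcrd loci and a ZsGreen reporter at Rosa26, which the labels give both as homozygous and as heterozygous, and were 4 to 6 weeks old. Sorted cells were CD3e-negative DP thymocytes. Mice of the 48 h groups received 1 mg of tamoxifen intraperitoneally 48 h before the thymus was taken, and their ZsGreen-positive cells were collected. For the steady-state groups the labels state no tamoxifen, and the sort was not restricted to ZsGreen-positive cells. Whether the 2 libraries of a group are 2 animals is not stated in the labels, so p-values measure only the spread between libraries, and part of it may be technical.

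DP thymocytes assemble Tcra by joining a Trav (V) segment to a Traj (J) segment with the RAG1 and RAG2 recombinase. From general knowledge of the field, the first joins bring together V segments near the J array, here called proximal, and J segments at its 5′ end. Later joins on the same allele delete what lies between and replace them with more distal V and more 3′ J segments, so the segments a cell uses record how far its locus has travelled. DPASE is known as a regulatory element of the Rag locus. TcrdCreER drives a tamoxifen-activated Cre from the Tcrd locus, so the label marks cells that expressed it around the injection, and the 48 h cohort is a dated group of cells against a pool of mixed age. The comparison asks which part of the V and J arrays the dated KO cells used relative to the KO pool.

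Each table gave the fraction of the repertoire for every V-J pair. Shares below are percent of the total over the 80 Trav segments that all 4 KO tables list, out of 85 listed in any table, and with 43 Traj segments they make 3440 pairs. Counts of reads or molecules are not in the tables, so depth is unknown. In bulk RNA, fewer cells with a rearrangement and less transcript per cell cannot be told apart. The table of KO 48 h replicate 2 stood apart from the others. Its deposited fractions summed to 1.98, against 0.998, 0.997 and 0.998 in KO 48 h replicate 1 and steady-state replicates 1 and 2. It held 44.8% of pairs at 0, against 2.88%, 1.60% and 1.54%, and its V usage differed strongly from the other 3 libraries. The tables of WT 48 h replicate 2 and of both replicate 2 libraries at 24 h also summed to near 2, with 42.4% to 55.2% of pairs at 0. V usage of WT 48 h replicate 2 also differed strongly from that of WT 48 h replicate 1. J usage of the 2 cohort libraries was close, with a Bray-Curtis distance (0 for identical usage, 1 for none shared) of 0.0502, against 0.0473 between the steady-state libraries and 0.0941 to 0.135 between cohort and pool. V usage of cohort replicate 2 lay 0.354 to 0.358 from each of the others, which lay 0.0533 to 0.0915 from each other. V-side and pair results are therefore given with that library and without it. Neither DPASE nor the Rag genes are in the tables, and the genotype labels have no check there. Besides V-J pairs, the tables hold no marker of the DP stage.

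The Traj segments called as changed in the main test (limma adjusted p under 0.05) lie in the 3′ part of the array, apart from Traj42. The 6 sequences below are shown because they mark the single segment called higher and 5 spaced among those called lower. How many segments are called higher depends on the scale, as given below. They come from GENCODE M21 on GRCm38, chromosome 14, plus strand, while the build behind the deposited tables is not given in the sources used here. Capitals mark the codons of the conserved J motif, found in 42 of the 43 Traj segments (97.7%), so it does not distinguish those called.
Traj42: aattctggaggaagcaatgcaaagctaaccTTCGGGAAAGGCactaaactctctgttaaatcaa
Traj17: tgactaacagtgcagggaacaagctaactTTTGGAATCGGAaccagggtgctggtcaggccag
Traj12: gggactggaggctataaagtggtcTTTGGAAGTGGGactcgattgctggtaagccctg
Traj9: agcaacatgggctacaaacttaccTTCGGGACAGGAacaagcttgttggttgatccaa
Traj5: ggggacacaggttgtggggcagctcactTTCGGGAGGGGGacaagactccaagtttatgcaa
Traj2: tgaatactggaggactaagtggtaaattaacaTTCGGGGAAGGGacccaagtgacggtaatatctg
Each is an exon of a TR J gene, at chr14:54175773-54175836 for Traj42, chr14:54201775-54201837 for Traj17 and chr14:54206553-54206610 for Traj12. Traj9 lies at chr14:54209393-54209450, Traj5 at chr14:54213777-54213838 and Traj2 at chr14:54217836-54217901. Traj42 is thus the most 5′ of the 6 and Traj2 the most 3′ segment in the tables.

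Relative to the KO pool, the KO 48 h cohort used the 3′ end of the J array less and the 5′ and middle parts more. The 3′ window, Traj21 to Traj2, held 17.6% and 20.1% of the steady-state libraries and 10.49% and 10.54% of the cohort, means of 18.9% ± 1.79 and 10.5% ± 0.033 (SD, n = 2). The middle window, Traj40 to Traj22, held 39.2% and 41.1% at steady state and 43.06% and 43.03% at 48 h. The 5′ window, Traj58 to Traj42, held 43.2% and 38.8% at steady state and 46.5% and 46.4% at 48 h. In none of the 3 windows did cohort and pool overlap. With 2 libraries a group an exact two-sided permutation test of such single values cannot go below p = 0.333, so they carry no test.

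Across all Traj segments, limma on log2(percent + 0.01) with Benjamini-Hochberg adjustment called 1 of 43 higher (2.33%) and 11 lower (25.6%) in the cohort at an adjusted p under 0.05. By the weaker reading that both cohort libraries lie outside both steady-state libraries, 15 were higher (34.9%) and 20 lower (46.5%), and 8 overlapped. The median log2 change over all 43 was -0.08. Shares sum to a fixed total, so a fall in one segment raises others. On a scale centred within each library on its mean log2 Traj share, the median became 0.18, and 12 segments were called higher and 11 lower. The same 11 were called lower on both scales, so how many are called higher depends on the scale.

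The largest falls were in Traj5, Traj7, Traj11 and Traj9, all in the most 3′ bin of the array. Traj5 held 0.425% and 0.496% of the steady-state libraries and 0.204% and 0.126% of the cohort, a log2 fold change of -1.46 (SE 0.23, limma adjusted p = 0.0011). Traj9 held 1.24% and 1.39% at steady state and 0.516% and 0.584% at 48 h, a log2 change of -1.24 (SE 0.15, limma adjusted p = 0.0005). Both cohort libraries lay below both steady-state libraries for each of them. Traj11, at 0.652% and 0.784% against 0.282% and 0.281%, changed by -1.31 (SE 0.21, limma adjusted p = 0.0011). Traj7, at 0.903% and 0.998% against 0.455% and 0.274%, changed by -1.40 with a larger error (SE 0.44, limma adjusted p = 0.038), and its adjusted p reached 0.245 when 1 library was left out. The cohort libraries agree less on Traj7 than on Traj11. Traj6 and Traj4 fell by 1.11 and 0.98 on the log2 scale, and Traj2, the last segment of the array, went from 0.321% and 0.365% to 0.142% and 0.185%, a change of -1.04 (SE 0.18, limma adjusted p = 0.0014).

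Farther 5′, Traj12 held 1.65% and 1.82% at steady state and 0.864% and 0.873% in the cohort, a log2 change of -0.99 (SE 0.16, limma adjusted p = 0.0011). Traj17, Traj16 and Traj15 fell by 0.72, 0.79 and 0.74 on the log2 scale. Calls for Traj12, Traj11, Traj9, Traj6, Traj5 and Traj2 held when any 1 of the 4 KO libraries was left out. Each of Traj17, Traj16, Traj15, Traj7 and Traj4 lost its call in at least 1 such fit, with adjusted p up to 0.245. Without steady state replicate 2 only the first 6 were called.

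Traj18, the segment of the invariant NKT cell receptor, held 2.27% and 2.62% at steady state and 1.75% and 1.64% at 48 h, and its log2 difference of -0.52 did not pass (limma adjusted p = 0.191). Traj33, the main J segment of the MAIT cell receptor, overlapped between groups, at 2.06% and 2.37% against 2.33% and 2.17%. Neither segment is used by those lineages alone.

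Traj42 was the only segment called higher. It held 3.82% and 3.78% of the steady-state libraries and 4.91% and 5.16% of the cohort, a log2 change of 0.41 (SE 0.11, limma adjusted p = 0.020). The 2 steady-state values are nearly equal and both cohort values lie well above them. In cohort replicate 2, 0.800% of the repertoire came from the single pair Trav15-2-dv6-2-Traj42. That pair held 0.0426% in replicate 1 and 0.0404% and 0.0406% in the pool. Leaving out any 1 of the 4 KO libraries ended the call, with limma adjusted p between 0.065 and 0.134. With every library given the same V usage, chosen after seeing the data, the log2 change of Traj42 was 0.46 and was not called. Its neighbours Traj40, at 4.25% and 4.07% against 5.12% and 5.31%, and Traj39, at 3.30% and 3.17% against 3.93% and 4.04%, were also higher without overlap but did not pass (limma adjusted p = 0.085 and 0.087).

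**Figure D1:**
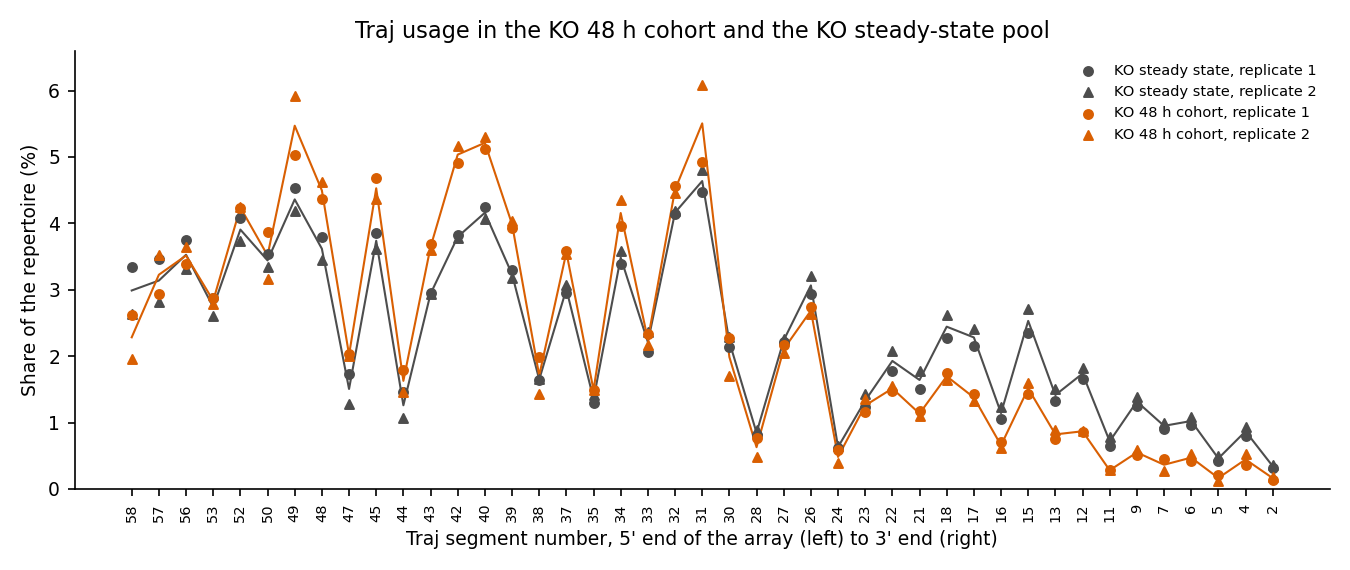
Share of the repertoire (percent, vertical axis) held by each of 43 Traj segments, ordered along the array with the 5′ side on the left, in 2 KO steady-state libraries (grey) and 2 KO 48 h cohort libraries (orange). Points are libraries and lines join group means. The cohort lies above the pool around Traj42 and below it from Traj22 to Traj2.

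The direction of the difference followed position along the array. In the bin next to the TEA promoter, which starts germline transcription at the 5′ end of the J array, 0 of 4 segments (Traj58 to Traj53) were called and the median log2 change was 0.02. Together they held 13.4% and 11.4% at steady state and 11.8% and 11.9% at 48 h, which overlap. Traj58, the first segment, held 3.34% and 2.64% in the pool and 2.62% and 1.95% in the cohort, and its log2 difference of -0.39 was not called (limma adjusted p = 0.248). Traj57 and Traj56 overlapped between groups. In the bin downstream of the Traj49 promoter, Traj52 to Traj45, 0 of 6 segments were called and the median was 0.29. The bin held 21.5% and 19.6% of the pool and 24.2% and 24.3% of the cohort, and 5 of its 6 segments were higher without overlap. Traj49 itself went from 4.53% and 4.19% to 5.03% and 5.91% (log2 0.32, limma adjusted p = 0.185), and Traj52 from 4.08% and 3.74% to 4.24% and 4.24%.

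All 5 segments of the bin Traj44 to Traj39 were higher without overlap, 1 of them by the limma call, and the median was 0.32. Their summed share was 15.8% and 15.01% at steady state and 19.5% and 19.6% in the cohort. From Traj38 to Traj31, 0 of 7 were called, the median was 0.14 and the sum went from 19.9% and 21.1% to 22.8% and 23.5%. Up to this point in the array every bin beyond the first was larger in the cohort. In the next, Traj30 to Traj22, 0 of 7 were called, the median was -0.19 and the sum was 11.7% and 12.8% against 11.2% and 10.2%. Then 4 of 7 were called lower in Traj21 to Traj12 (median -0.74), whose sum was 12.3% and 14.1% against 8.12% and 8.03%. All 7 segments from Traj11 to Traj2 fell (median -1.24), and their sum was 5.31% and 6.05% against 2.37% and 2.51%. The last segment with a positive change was Traj31, 30.6 kb from Traj58, on the scale of shares, and Traj23 on the centred scale.

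With the 3′ flank of the J profile lower, the 5′ end level and the centre higher, the cohort's usage covered a narrower stretch. The SD of J number among rearrangements was 14.30 and 14.38 at steady state and 12.34 and 12.42 at 48 h. The effective number of J segments, the number of equally used segments of the same Shannon diversity, was 36.9 and 37.7 in the pool and 33.5 and 32.5 in the cohort. Mean J number, which is higher the more 5′ the usage, was 36.6 and 35.2 in the pool and 38.53 and 38.51 in the cohort, means of 35.9 ± 1.01 and 38.5 ± 0.015 (SD, n = 2). The cohort's J usage was thus both more 5′ on average and narrower, with no overlap on any of these measures.

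In WT mice fewer Traj segments were called lower between the same samplings. There the limma fit called 4 of 43 Traj segments lower (9.30%), namely Traj6, Traj5, Traj4 and Traj2, and 0 higher, with 7 at an unadjusted p under 0.05. By non-overlap 15 of 43 were higher and 10 lower in WT. In the bin Traj11 to Traj2 all 7 were lower without overlap, as in KO. That bin held 13.6% and 15.4% of the WT pool and 9.69% and 7.13% of the WT cohort. In WT the 3′ window held 30.2% and 33.2% at steady state and 26.8% and 21.6% at 48 h, and mean J number was 31.4 and 30.1 against 31.9 and 33.7. From Traj30 to Traj22 the WT cohort held more, 16.0% and 14.97% against 13.5% and 13.9%, where the KO cohort held less. The last segment with a positive change in WT was Traj21. The difference between the KO change and the WT change was tested by its own contrast, which called 0 of 43 Traj segments, with 7 (16.3%) at an unadjusted p under 0.05. Its largest terms were at Traj9 (-0.84, SE 0.21) and Traj12 (-0.81, SE 0.23), both with limma adjusted p = 0.112. Without the 4 tables whose fractions sum to near 2, all replicate 2 libraries of the tamoxifen groups, a setting chosen after seeing the data, the contrast called 13. That fit leaves 1 library in each tamoxifen group, assumed to vary like the steady-state libraries. With all tables kept and a replicate block within each sampling, also chosen after seeing the data, it called 6. Thus the J-side calls differ in number between genotypes, but whether the changes differ depends on those tables and on the block.

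**Figure D2:**
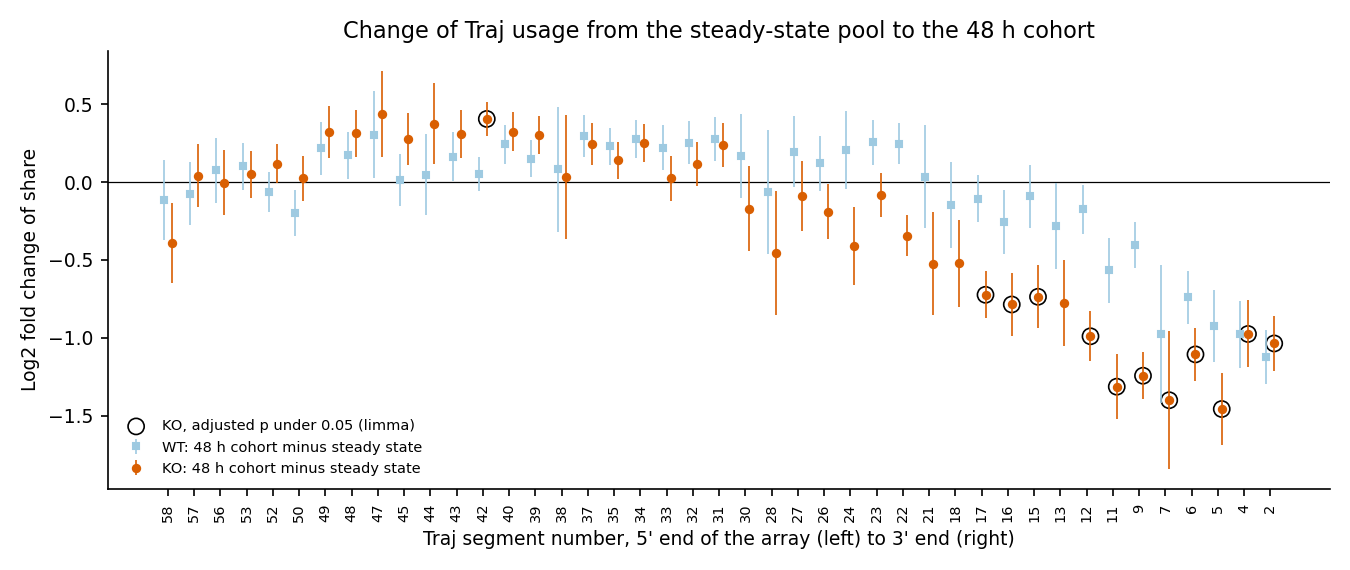
Log2 fold change of Traj share, 48 h cohort minus steady state, for each of 43 Traj segments with the 5′ side on the left, in KO (orange circles) and WT (blue squares), 2 libraries a group. Bars are the standard error from limma, and black rings mark the 12 segments with an adjusted p under 0.05 in KO. All values to the right of Traj31 are negative in KO, and all to the right of Traj21 in WT.

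V and J usage are linked within each transcript, so the J difference was followed along the V array. Trav segments were split by rank on the chromosome into a distal zone (26 segments, Trav1 to Trav9d-3), a central zone (27, Trav12d-3 to Trav12-1) and a proximal zone (27, Trav13-1 to Trav21-dv12). In the distal zone mean J number was 33.2 and 31.6 at steady state and 37.3 and 36.9 in the cohort. The central zone gave 33.3 and 32.1 against 36.2 and 35.6. In the proximal zone the groups overlapped, at 40.7 and 39.8 against 40.5 and 40.3. In mean J number, cohort and pool thus parted for distal and central V segments and overlapped for proximal ones. The gap in mean J number between proximal and distal zones was 7.44 and 8.21 in the pool and 3.15 and 3.39 in the cohort. In WT it was 11.6 and 13.2 in the pool and 8.61 and 7.25 in the cohort.

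Taking each of the 80 Trav segments alone, 50 had a higher mean J number in both cohort libraries than in both steady-state libraries (62.5%), and 2 a lower one (2.50%). The 50 comprise 24 of 26 distal segments, 21 of 27 central and 5 of 27 proximal. Median differences were 4.24, 3.48 and 0.48 J numbers in the 3 zones. Trav1, the most distal segment, had a mean J number of 27.5 and 27.0 in the pool and 30.98 and 31.18 in the cohort. Trav21-dv12, the segment nearest the J array, had 47.6 and 47.5 in the pool and 47.3 and 50.1 in the cohort, which overlap. The 2 lower segments, Trav13-5 and Trav20, are both proximal. In KO 48 h replicate 1 alone, all 26 distal and all 27 central segments lay above both steady-state libraries, against 11 of 27 proximal ones. In replicate 2 the counts were 24, 21 and 13, and single segments scattered more widely. In WT 39 segments were higher (48.8%), 22 distal, 17 central and 0 proximal, and 7 were lower (8.75%), all of them proximal.

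**Figure D3:**
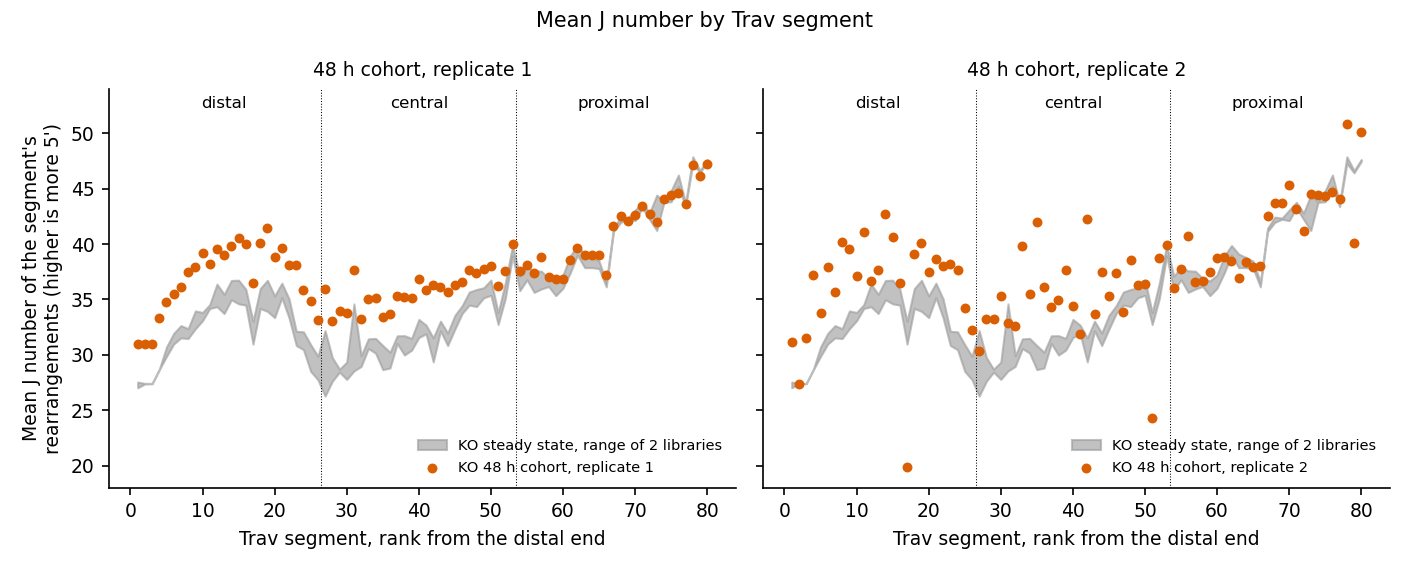
Mean J number of the rearrangements of each of 80 Trav segments (vertical axis, higher is more 5′) against rank from the distal end of the V array, with 1 panel for each KO 48 h library (orange points). The grey band spans the 2 KO steady-state libraries and dotted lines separate the zones. Points lie above the band in the distal and central zones and on it in the proximal zone, with wider scatter in replicate 2.

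Within the zones, the cohort was lower at the 3′ end of the J array in all 3, and the zones differed at the 5′ end. Rearrangements of distal V segments used Traj11 to Traj2 for 7.30% and 8.11% of their total at steady state and 2.15% and 2.63% in the cohort, and Traj21 to Traj12 for 17.5% and 19.9% against 9.81% and 9.94%. Proximal V segments used Traj11 to Traj2 for 3.41% and 3.87% against 2.37% and 2.31%, a smaller difference in the same direction. Central V segments used Traj11 to Traj2 for 6.59% and 7.27% against 2.52% and 2.86%. At the 5′ end, distal segments joined Traj58 to Traj53 in 9.99% and 8.20% of their transcripts at steady state and in 10.1% and 11.4% at 48 h, while proximal segments did so in 19.6% and 17.9% against 15.9% and 14.4%. For central segments the groups overlapped there, at 7.18% and 5.83% against 6.504% and 6.868%. Proximal segments of the cohort were therefore lower at the first J segments and at the last ones, while their mean J number overlapped.

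**Figure D4:**
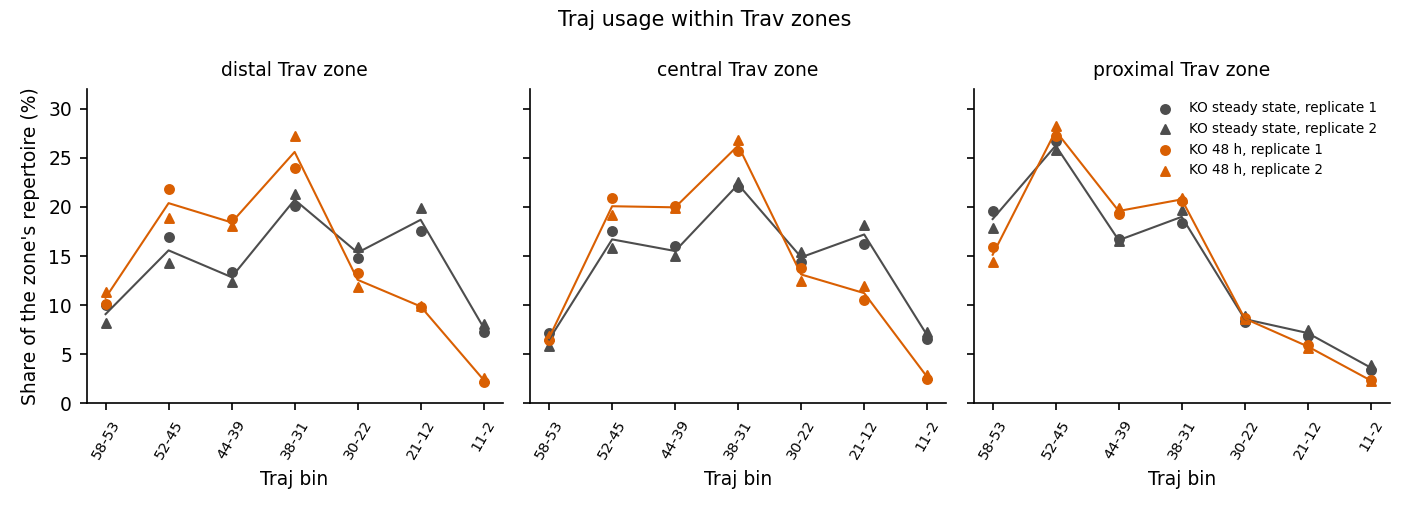
Share of each Trav zone's repertoire (percent, vertical axis) in 7 bins of Traj segments ordered 5′ to 3′, for distal, central and proximal zones, in 2 KO steady-state (grey) and 2 KO 48 h libraries (orange). Points are libraries, circles replicate 1 and triangles replicate 2, and lines join group means. The cohort lies below the pool in the last 2 bins of every zone, and in the first bin of the proximal zone.

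Read from the J side, the few 3′ joins of the cohort used more proximal V segments. The mean V rank (1 is Trav1, 80 is Trav21-dv12) of rearrangements in the 3′ window was 38.3 and 37.2 in the pool and 44.2 and 45.3 in the cohort. In the 5′ window it was 52.5 and 52.02 against 52.02 and 54.99, so that the 2 replicates of the cohort went apart. Since V usage also differed, J usage was recomputed with every library given the mean V usage of the KO steady-state libraries. Mean J number was then 36.4 and 35.4 against 38.2 and 38.1, and the 3′ window 17.96% and 19.7% against 10.8% and 10.5%. The differences are nearly those of the unadjusted shares, although limma then called 7 Traj segments, all lower, in place of 12.

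No Trav segment passed the test. The limma fit called 0 of 80 (0%) in either direction, and 1 (1.25%) had an unadjusted p under 0.05. Without cohort replicate 2 it called 0 as well. The contrast of KO and WT changes called 0 Trav segments, with 0 at an unadjusted p under 0.05. By non-overlap, 10 were higher (12.5%) and 21 lower (26.2%). The 21 lower segments were 10 distal and 11 central ones, and 9 of the 10 higher ones were proximal. The distal zone held 21.5% and 23.0% of the pool and 18.6% and 16.3% of the cohort, and the proximal zone 45.2% and 41.5% against 49.5% and 57.2%. Replicate 1 of the cohort alone lies outside the pool in the same direction, by less. The proximal value of replicate 2 includes Trav15-2-dv6-2, at 11.7% there against 0.745% and 0.724% in the pool. The mean V rank of replicate 2 includes it too. Taken by segment, 13 of 27 proximal log2 changes were positive, with a median of -0.02, against -0.38 in the distal and -0.36 in the central zone. Mean V rank was 46.6 and 45.1 in the pool and 48.5 and 50.9 in the cohort, with WT at 42.3 and 40.7 against 42.5 and 47.0.

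The 2 most distal segments, Trav1 and Trav2, were lower in both cohort libraries than in the pool. Trav1, part of the MAIT cell receptor, held 0.856% and 1.24% at steady state and 0.333% and 0.163% at 48 h. Its log2 difference of -2.09 (SE 0.64) had the unadjusted p of 0.0114 and missed the threshold (limma adjusted p = 0.745). Trav2 held 0.764% and 0.966% in the pool and 0.443% and 0.133% in the cohort, and the fit for it leaves out the KO 24 h replicate 2 library, whose table does not list it. Cohort and pool did not overlap for either segment, and replicate 1 shows it without replicate 2. The WT values of the pair summed to 3.07% and 3.78% in the pool and 2.54% and 0.912% in the cohort.

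On the higher side, both cohort libraries lay above the pool for the Trav9 family as a whole. Its summed share was 3.73% and 4.05% at steady state and 5.30% and 5.90% in the cohort. With both cohort libraries, all 8 members had a positive log2 change, from 0.01 to 0.78, 4 of them without overlap. In cohort replicate 1 alone, Trav9d-2 (0.128% against 0.129% and 0.248%) and Trav9d-3 (0.264% against 0.260% and 0.391%) lay below the pool mean. The other members lay above it. In WT 5 of the 8 log2 changes were positive. Over all 80 Trav segments 29 changes were positive in KO. Trav9-4, chosen after its values were seen, held 1.07% and 1.05% in the pool and 1.73% and 1.79% in the cohort (limma adjusted p = 0.745). Trav9-3 went from 0.779% and 0.866% to 1.19% and 1.70%. Members of such families resemble each other in sequence to differing degrees, and how reads were split between them is not given in the sources used here. Segments at the proximal end, Trav17, Trav19 and Trav21-dv12, overlapped between the groups, Trav21-dv12 at 2.44% and 2.26% against 2.37% and 0.895%.

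**Figure D5:**
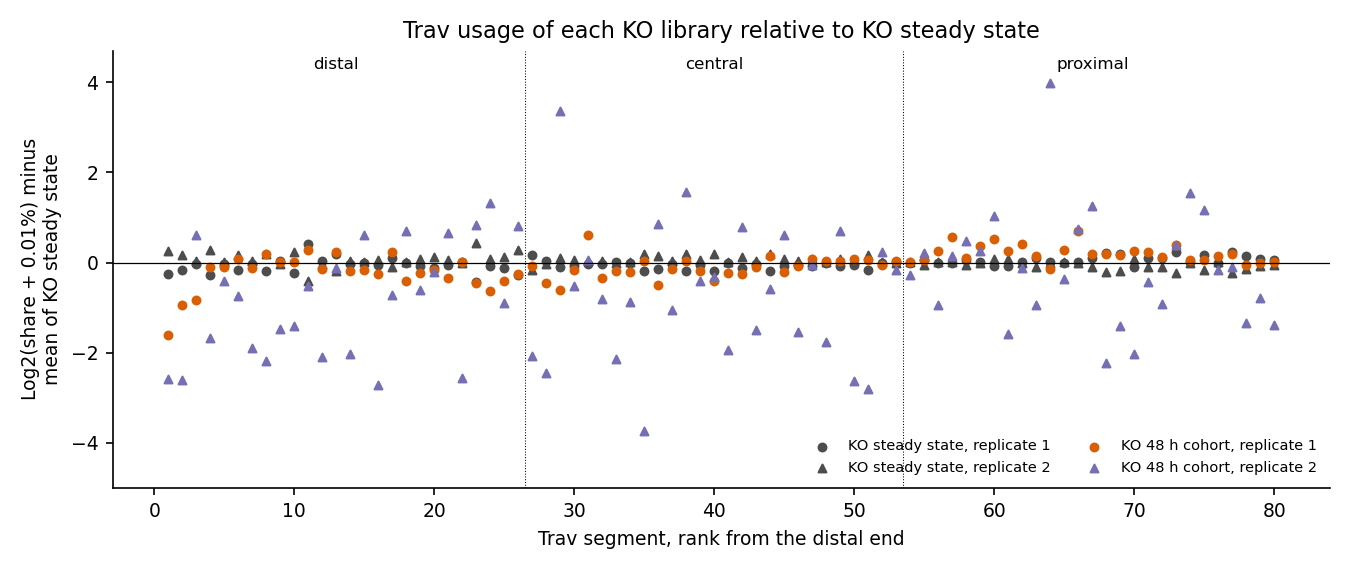
Log2(share + 0.01%) of each of 80 Trav segments minus the mean of the 2 KO steady-state libraries (vertical axis), against rank from the distal end, for the 4 KO libraries. Steady-state points (grey) and most points of KO 48 h replicate 1 (orange) lie near 0, with Trav1 the lowest of the latter, and KO 48 h replicate 2 (purple triangles) scatters from below -3 to near 4.

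Most of the spread on the V side came from 1 library. The median absolute log2 difference between replicates over Trav segments was 1.06 in the cohort and 0.14 at steady state, while over Traj segments it was 0.13 and 0.14. Trav15-2-dv6-2, a segment that can also rearrange in Tcrd, was at 0.745% and 0.724% in the pool, 0.669% in cohort replicate 1 and 11.7% in cohort replicate 2, chosen here after its values were seen. The 10 dv-named segments, markers of transcripts that gamma-delta cells could share, held 13.3% and 12.1% of the pool and 13.3% and 25.5% of the cohort. Without the Trav15 family those named dv held 11.2% and 9.99% against 11.2% and 10.3%. WT 48 h replicate 2 had a dv-named share of 33.8%, against 12.2% in WT 48 h replicate 1. Results without cohort replicate 2 are given beside the V-side results. The cause of that library's V usage was not tested.

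No single V-J pair passed the test. The limma fit called 0 of 3440 pairs (0%), with 201 (5.84%) at an unadjusted p under 0.05, and the contrast with WT called 0, with 71 (2.06%). Since cohort replicate 2 holds 1541 pairs at 0, pairs were described in replicate 1. That library lay below both steady-state libraries in 1416 pairs (41.2%) and above both in 1279 (37.2%). Among pairs of a distal V with a 3′ J, 338 of 364 lay below (92.9%), and of a central V with a 3′ J 344 of 378 (91.0%). Of proximal V and 3′ J pairs 185 of 378 lay below (48.9%), and of proximal V with middle J 299 of 432 lay above (69.2%). Distal V with 5′ J pairs lay above in 189 of 338 (55.9%). Over V segments of all zones, 77.4% of 3′ J pairs lay below, and 46.9% of middle and 56.1% of 5′ J pairs lay above. The distal figure for 5′ J pairs is thus near that of 5′ J pairs of any zone. Pairs of 1 segment share its level, so these counts are not independent observations.

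The pairs with the largest mean shares at steady state joined Trav21-dv12, the most proximal V, to the first J segments. Trav21-dv12-Traj58 held 0.369% and 0.327% of the pool and 0.313% and 0.0886% of the cohort (limma adjusted p = 0.781). Trav21-dv12-Traj57 held 0.296% and 0.260% against 0.258% and 0.215%. Both were below the pool in each cohort library, and replicate 1 by little. In the cohort the largest mean shares belonged to Trav15-2-dv6-2-Traj42, Trav14-3-Traj49 and Trav14-3-Traj52, whose values are high in replicate 2 alone. Trav14-3-Traj49, for example, held 0.160% and 0.158% in the pool, 0.182% in cohort replicate 1 and 0.799% in replicate 2.

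Pairs that mark other T cells held under 0.05% of every KO library. Trav11-Traj18, the invariant NKT cell rearrangement, held 0.0379% and 0.0469% of the pool and 0.0346% of cohort replicate 1, and is listed at 0 in replicate 2. Trav1-Traj33, the MAIT cell rearrangement, held 0.0300% and 0.0441% against 0.0128%, and is listed at 0 in replicate 2. Neither pair was called (limma adjusted p = 0.781 and 0.534). Relative to the product of the Trav1 and Traj33 shares, the latter was 1.70 and 1.51 in the pool and 1.65 in cohort replicate 1.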

How the data were processed

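Sorted CD3e-negative DP thymocytes gave total RNA, from which Tcra transcripts were amplified by template-switch RACE with a Trac primer, per the labels' protocols. The authors deposited 1 table a library, whose cells are, per the file headers, fractions of the repertoire for a Trav (row) and a Traj (column). Aligner, build and counting unit are not stated there or in the labels, and without counts no interval or floor was computed. Blank rows were dropped, and each table was divided by its own total over the 80 Trav rows listed in all 4 KO tables, which held 97.6% to 99.7% of those tables. Trav5-1, Trav13d-2, Trav18, Trav7-6 and Trav4d-2, each not listed in at least 1 of them, were left out.

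Shares were tested with limma 3.58.1 in R 4.3.3 on log2(percent + 0.01), which understates changes of low shares, with 1 mean for each of the 6 groups of 2, all 12 libraries sharing the spread (6 residual degrees of freedom). Adjustment was Benjamini-Hochberg over all Traj, Trav or pairs at 0.05, and no filter was applied. The fits were run on simulated data with known changes. For Trav the simulated spread was set below that between the cohort replicates, so it does not show what the Trav test could detect here. Positions are from GENCODE M21 on GRCm38; 2 Trav segments without a place there took the rank of their row in the tables.

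Named Traj were all called ones, up to 12 in each direction, with Traj58, Traj57, Traj56, Traj52, Traj49, Traj42, Traj33, Traj18 and Traj2; named Trav and pairs were the called ones or, with none called, those of smallest p (3 each way) or largest mean share (3 for each group), with a fixed list. Members, lists and rules were chosen with earlier results of these data known. Alternatives changed the pseudocount, filter, libraries fitted, replicate block, rows in the total, scale, variance prior, weights, and left out each library.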

Additional observations from a re-analysis of the deposited data

Results flagged for a closer look

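In 4 measures both KO cohort libraries lay outside the KO pool in one direction. In the same measures both WT cohort libraries lay outside the WT pool in the opposite one. These differences between genotypes were not tested as summed shares. The 4 were picked by their values from a larger set of measures, whose number is not given here. With 2 libraries a group, some such splits can arise among many measures without a difference. The bin Traj30 to Traj22 enters over all V segments and again within the distal and central zones, so these measures overlap. The bin Traj30 to Traj22 differed by a mean of -1.60 percentage points in the KO cohort, where WT went from 13.5% and 13.9% to 16.0% and 14.97%. Within the distal V zone the same bin differed by -2.77 points in KO (14.8% and 15.9% against 13.3% and 11.9%), with WT at 15.6% and 15.8% against 19.0% and 21.5%. In the central zone it differed by -1.75 points in KO (14.4% and 15.4% against 13.8% and 12.5%), with WT at 15.8% and 16.1% against 18.4% and 17.0%. Among proximal V segments the bin Traj52 to Traj45 was higher by 1.497 points in the KO cohort (26.7% and 25.8% against 27.3% and 28.2%), with WT at 22.9% and 23.3% against 21.7% and 22.4%.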

How the results depend on the processing

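With 2 libraries a group and unknown depth, a missed call does not show that usage was alike. The number of Traj segments called in KO, 12 as reported, was 23 on the centred scale, 7 when every library was given the same V usage (chosen after seeing the data), and 6 to 10 when 1 of the 4 KO libraries was left out. Same-numbered KO cohort and pool libraries correlated at 0.073 over Traj deviations from the group means, while same-numbered KO and WT libraries did at 0.94 at steady state and 0.412 at 48 h, over 2 numbers each. At both samplings and in both genotypes, replicate 1 libraries did not list Trav13d-2 and Trav5-1, and replicate 2 libraries did not list Trav18 and Trav7-6. Same-numbered cohort and pool libraries thus share a listing pattern, which the main fit and the non-overlap counts do not model. A replicate block gave 13 calls with 12 libraries and 18 with the 4 KO libraries, and 0 Trav or pairs. The contrast of KO and WT changes called 0 Traj segments as reported, 2 with array weights, 6 with a replicate block within each sampling and 13 without the 4 tables that sum to near 2, the last 2 chosen after seeing the data; for pairs it called 0 to 2 when 1 library was left out, 2 without WT 48 h replicate 1. The cause was not tested. Of 323 comparisons of 19 named Traj with an alternative, 288 kept direction and side of the threshold. In 20 a called segment lost its call, and in 5 a segment that was not called gained one. The remaining 10 reversed, all of segments that were not called. Leaving out 1 KO library gave log2 changes of -0.11 to 0.19 for Traj57, -0.091 to 0.084 for Traj56, -0.076 to 0.13 for Traj33, -2.81 to 0.050 for Trav11, -0.19 to 0.26 for Trav17 and -1.38 to 0.0096 for Trav21-dv12. Without the 4 tables Traj57 was -0.089, Trav11 0.050 and Trav21-dv12 0.0096. Traj57 was -0.0301 at one V usage, Traj56 0.0097 with each table's own total and 0.26 centred, and Trav21-dv12-Traj57 0.012 centred.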
